A study of Rattus norvegicus with 6 samples.

Results

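The genes described here encode the amyloid precursor protein family and the secretases that cut it: App, Aplp1, Aplp2, Bace1, Psen2, Ncstn, Aph1a, Psenen and Adam10. These 9 genes were taken by name, because the study's subject is neuroprotection by C1q and its paper deals with amyloid toxicity. The platform annotation named a probe set for 7 of them, 1 probe set each, out of 14506 genes named alone by one of the 29215 probe sets. No probe set was named here for Aplp2 or Adam10, so neither gene has a value below. The arrays measured cortical neurons of Sprague-Dawley rat embryos taken at day 18 and kept for 3 days in the medium the labels call NB-N2. One group of 3 arrays held untreated neurons, and the other held neurons exposed to 10 nM C1q, the recognition protein of the classical complement pathway, for 3 h. The labels name no vehicle for the untreated group and do not say whether arrays 1 to 3 came from separate cultures, so every test below sets the groups against an array-to-array spread that may be technical.

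Amyloid precursor protein is a membrane protein of neurons that is cut in its outer part by an alpha secretase, chiefly ADAM10, or by the beta secretase BACE1. The membrane stub that remains is cut within the membrane by gamma secretase, and the amyloid-beta peptide forms when BACE1 has made the first cut. Gamma secretase is a complex of a presenilin (such as PSEN2), nicastrin (Ncstn), APH-1 (Aph1a) and PEN-2 (Psenen), and it also cuts Notch and many other membrane proteins. APLP1 and APLP2 are relatives of amyloid precursor protein that the same enzymes cut and that lack the amyloid-beta sequence.

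Neuronal markers were of unequal brightness, and some markers of other cell types were also bright enough to be tested. All 12 pan-neuronal markers were tested, from Nefl at an intensity of 484 ± 48.9 to Dcx at 8601 ± 336 (untreated, SD, n = 3 each). Of excitatory neurons, Neurod6 read 6028 ± 246 and Slc17a6 348 ± 29.5 (untreated, SD, n = 3 each). Gad1, of inhibitory neurons, read 1836 ± 86.2 (untreated, SD, n = 3). An intensity of 94.4 was used as a filter on dim probe sets. Of the markers, 6 of 7 microglial, 4 of 5 endothelial and 3 of 5 mural and meningeal ones lay below it. Of 6 astrocyte markers 5 lay above it, led by Slc1a3 at 458 ± 42.3, and Gfap lay below at 51.7 ± 3.49 (untreated, SD, n = 3 each). Of 6 measured markers of the oligodendrocyte lineage 5 lay above, led by Mbp at 268 ± 39.1 (untreated, SD, n = 3). Of 5 measured markers of radial glia and dividing cells 4 lay above, among them Vim at 3010 ± 107 and Top2a at 926 ± 58.0 (untreated, SD, n = 3 each). The 5 blood markers summed to 2115 to 2395 on the untreated and 2412 to 2597 on the C1q arrays. Hbb and Hba-a3, both of hemoglobin, were the 2 markers of 44 tested whose groups did not overlap, beside 5.72% of all probe sets tested. Their fold changes were 1.19 and 1.12, with an adjusted p of 0.9999 each by limma. The part of these cells in the values below was not tested. Array medians ran from 147 to 155. Mean intensities ran from 566 on C1q array 3 to 599 on untreated array 1. On the log2 scale used for the tests, array medians differed by up to 0.07. Detection calls were not used, so the share of background in an intensity is unknown. In a bulk culture, fewer cells of a type and less RNA per cell cannot be told apart.

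All 7 genes were bright enough to be tested, and none passed the test between untreated and C1q-treated neurons. Their fold changes lay between 0.954 for Psenen and 1.03 for Bace1, with 6 means lower and 1 higher after C1q. Of all probe sets tested, 63.3% had lower means. The 95% intervals of all 7 together ran from 0.843 to 1.14. These bounds hold for intensity with a constant added before taking logs. For plain intensity the intervals are wider, most of all for dim genes. The limma test called 0 of the 7 at an adjusted p under 0.05 and 0 at an unadjusted p under 0.05. Over all 17529 probe sets tested it called 0, or 0%, and 437 had an unadjusted p under 0.05. The untreated and C1q arrays overlapped for all 7 genes, while they did not overlap for 5.72% of all probe sets tested.

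App, the precursor itself, gave intensities of 4686, 4375 and 4460 on untreated arrays 1 to 3 and of 4516, 4500 and 4390 on C1q arrays 1 to 3. Untreated array 1 was the highest and untreated array 2 the lowest, so the C1q arrays lay inside the untreated range. The means were 4507 ± 161 untreated and 4469 ± 68.5 after C1q (SD, n = 3 each). C1q over untreated was 0.992-fold (95% interval 0.930 to 1.06) with an adjusted p of 0.9999 by limma. The sign of this difference was not stable, since the log2 fold change of -0.01 became 0.003 with quantile normalization, 0.015 with median centring and 0.017 without untreated array 1. The probe set of App lay above 98.2% of all 29215 probe sets by its untreated mean.

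Aplp1, the family member found almost only in the nervous system, gave 3676, 3074 and 3038 on the untreated arrays and 3143, 3291 and 3065 on the C1q arrays. Untreated array 1 stood 1.20 times as high as the mean of untreated arrays 2 and 3, the widest such gap of the 7 genes, and the other 5 arrays lay between 3038 and 3291. The means were 3263 ± 358 and 3166 ± 115 (SD, n = 3 each), and C1q over untreated was 0.974-fold (95% interval 0.879 to 1.08) with an adjusted p of 0.9999 by limma. Without untreated array 1 the log2 fold change of -0.04 turned to 0.05.

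Within each array the difference of Aplp1 and App cannot be moved by an array-wide scaling factor, and only its change between arrays can be read, since separate probe sets bind RNA unequally. The log2 difference of Aplp1 minus App was -0.35, -0.51 and -0.55 on the untreated arrays and -0.52, -0.45 and -0.52 on the C1q arrays. Untreated array 1 again stood apart, and the remaining 5 arrays lay between -0.55 and -0.45. The C1q mean minus the untreated mean was -0.03, with p = 0.8 by a two-sided exact permutation test, in which 3 arrays against 3 cannot give less than 0.1. Of 3 such differences planned, the other two needed Adam10 or Aplp2 and could not be computed.

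**Figure D1:**
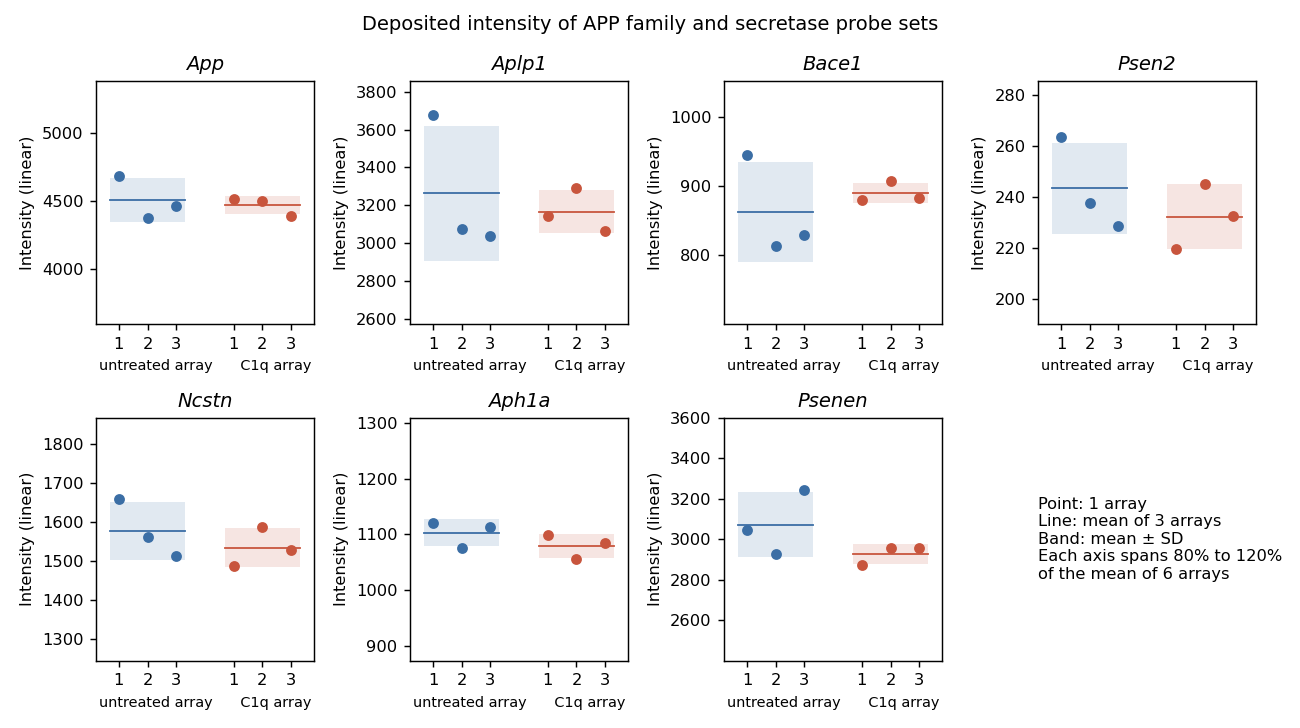
Deposited intensity (linear scale) of the 7 measured genes on each of the 3 untreated and 3 C1q arrays; points are arrays, lines group means and bands the mean ± SD, and each vertical axis spans 80% to 120% of that gene's mean over 6 arrays. Untreated array 1 is the highest point for every gene but Psenen, whose highest is untreated array 3, and the groups overlap in every panel.

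Bace1, which encodes the beta secretase, had the only higher mean after C1q. It gave 945, 813 and 829 on the untreated arrays and 880, 907 and 883 on the C1q arrays. All 3 C1q arrays lay above untreated arrays 2 and 3 and below untreated array 1. The means were 862 ± 71.8 and 890 ± 14.9 (SD, n = 3 each), and C1q over untreated was 1.03-fold (95% interval 0.940 to 1.14) with an adjusted p of 0.9999 by limma. The log2 fold change was 0.05 on all arrays, 0.11 without untreated array 1 and 0.007 without untreated array 2. It remained positive in all 14 alternatives computed for it, with no adjusted p under 0.246.

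Among the gamma secretase subunits of the 7 genes, all 4 means were lower after C1q and none passed the test. Of all probe sets tested, 63.3% had lower means too. Each of the 4 differences was smaller with quantile normalization or median centring, and when a certain array was left out. Median centring gave log2 fold changes of -0.0041 for Aph1a, -0.013 for Ncstn, -0.035 for Psen2 and -0.041 for Psenen. Without C1q array 2 the log2 fold change of Aph1a went from -0.03 to -0.016, and without untreated array 3 that of Psenen from -0.07 to -0.028. The log2 fold change of Psen2, -0.06 on all arrays, was -0.0066 without untreated array 1 and -0.024 without C1q array 1, and that of Ncstn, -0.04 on all arrays, was -0.0032 and -0.017. Psen2, a catalytic subunit and the dimmest of the 7 genes, gave 263, 238 and 229 on the untreated arrays and 220, 245 and 233 on the C1q arrays. C1q array 1 was the lowest and untreated array 1 the highest. The means were 243 ± 17.9 and 232 ± 12.7 (SD, n = 3 each), and C1q over untreated was 0.958-fold (95% interval 0.843 to 1.09), the widest of the 7 on its lower side.

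Ncstn, whose product binds the substrates of the complex, gave 1658, 1562 and 1513 on the untreated arrays and 1487, 1586 and 1529 on the C1q arrays. As with Psen2, untreated array 1 was the highest and C1q array 1 the lowest. The fold change was 0.973, with an interval of 0.901 to 1.05. Aph1a, a scaffold subunit, was the steadiest gene among the untreated arrays, with 1121, 1076 and 1113, and gave 1098, 1057 and 1084 on the C1q arrays. Its SD was 2.20% of the mean in untreated and 1.96% in C1q-treated neurons, and its fold change was 0.979, with an interval of 0.910 to 1.05. The adjusted p of each of these subunits was 0.9999 by limma.

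Psenen encodes PEN-2, the smallest subunit, whose joining leads the presenilin to be cut into its active form. It gave 3047, 2927 and 3244 on the untreated arrays and 2872, 2956 and 2958 on the C1q arrays. Untreated array 3 was the highest, and untreated array 2 lay among the C1q values. The means were 3073 ± 160 and 2929 ± 49.2 (SD, n = 3 each), and C1q over untreated was 0.954-fold (95% interval 0.888 to 1.03), with an unadjusted p of 0.178 and an adjusted p of 0.9999 by limma. Psenen was the 1 gene of the 7 with a call under any alternative. With array weights limma gave a log2 fold change of -0.14, an adjusted p of 0.0447 and a fold of 0.907 (0.863 to 0.953). That fit called 447 probe sets, or 2.55% of those tested. It weighted untreated arrays 1 to 3 by 0.362, 0.335 and 5.51, so its untreated level came mostly from array 3, where Psenen read highest. Without untreated array 3 the log2 fold change of Psenen was -0.03.

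**Figure D2:**
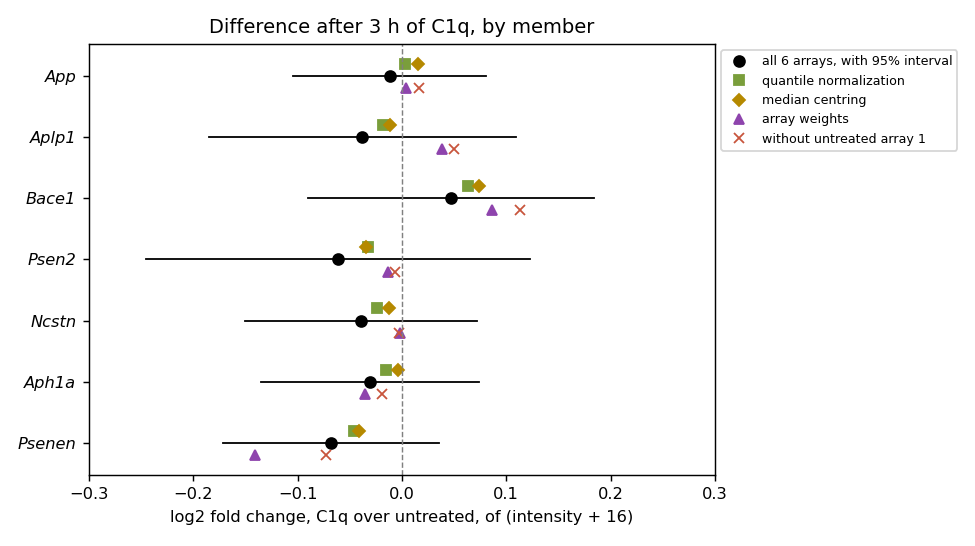
Log2 fold change of (intensity + 16), C1q over untreated, for each of the 7 genes (horizontal axis); black points and lines give the limma value over all 6 arrays with its 95% interval, and coloured marks the value under 4 alternatives without their intervals. Every interval includes 0, App lies on either side of 0 by alternative, and Psenen lies lowest with array weights at -0.14.

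By position among the 29215 probe sets, the untreated means of the other 6 genes lay above 96.8% for Aplp1, 96.5% for Psenen, 90.3% for Ncstn, 85.1% for Aph1a, 81.3% for Bace1 and 58.6% for Psen2. These positions describe the brightness of a probe set and give no order of mRNA amounts. They show that App, Aplp1 and Psenen were among the brightest probe sets of these neurons, and that Psen2 lay closest to the filter.

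The SD ran from 2.20% to 11.0% of the mean among untreated arrays and from 1.53% to 5.48% among C1q arrays, and it was smaller after C1q for all 7 genes and for 70.3% of all probe sets tested. With untreated array 1 left out it was smaller after C1q for 2 of 7 genes, Aph1a and Psenen, and for 53.6% of all tested. Untreated array 1 was the highest of the 6 arrays for 6 of the 7 genes, all but Psenen. The same array was the highest for 42.0% of all probe sets tested, and its mean intensity was 106% of that of the dimmest array. The log2 value on untreated array 1 exceeded the mean of the other 5 arrays by a median of 0.11 for the 7 genes and of 0.07 for all probe sets tested. After quantile normalization untreated array 1 was highest for 4 of 7 genes and for 21.4% of all tested, and after median centring for 6 of 7 and 39.2%. Which property of that array moves with these genes was not tested.

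The profiles over the 6 arrays fell into different shapes, given here as a description over arrays that share their scaling. The highest Pearson's r of the 21 pairs of genes was that of Psen2 and Ncstn, at 0.996. It was 0.839 after quantile normalization and 0.991 after median centring. App and Aplp1 had r = 0.913. Psenen had r between -0.175 and 0.551 with the other 6 genes, and with Ncstn, a subunit of the same complex, 0.0765. The r of Psenen and Ncstn turned with the scaling, to -0.259 after quantile normalization and 0.221 after median centring. Of the 21 pairs of genes, 5 had r over 0.8 and 1 was negative on the deposited scale. The share over all pairs of probe sets was not computed. A high r was not particular to these genes, as 258 tested probe sets with a single named gene had r over 0.95 to App.

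**Figure D3:**
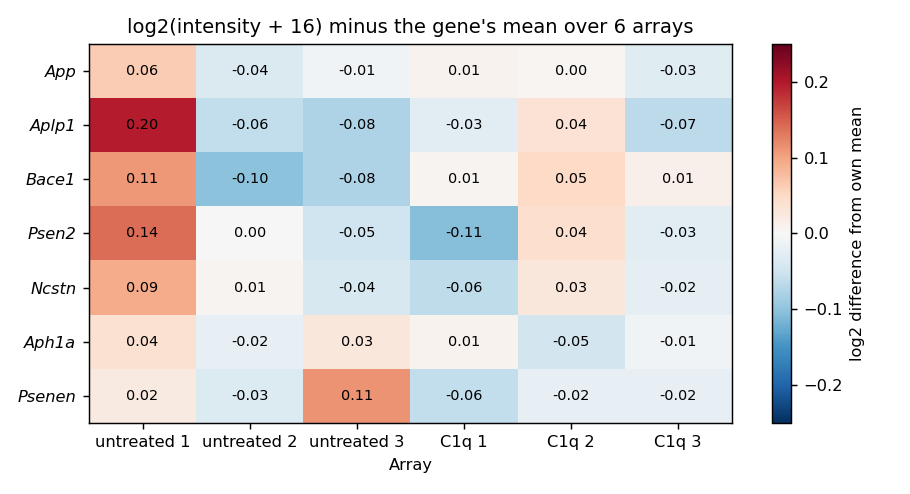
Log2(intensity + 16) of the 7 genes (rows) on each of the 6 arrays (columns) minus the gene's own mean over the 6 arrays; red is above and blue below that mean, with the value printed in each cell. Untreated array 1 is red for all 7 genes and strongest for Aplp1 at 0.20, and Psenen is highest on untreated array 3 at 0.11.

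Sequence is shown for Bace1, the gene with the higher mean, and for Psenen, the gene with the lowest fold change. A promoter sequence was matched for all 9 genes in RefSeq's table for GRCr8, which reaches 250 bases upstream of a start site. For App, Aplp1, Aplp2, Psen2 and Aph1a the window overlaps the span of the gene itself, and is not shown. The window of Bace1 is chr8:55038592-55038841 on the plus strand, outside any annotated gene, and Psenen is shown only between its start and that of its head-to-head neighbour U2af1l4, at chr1:94943546-94943683 on the minus strand. Capitals mark a CCAAT box (CCAAT or its complement) in Bace1 and a GC box (GGGCGG) in the Psenen stretch.
Bace1: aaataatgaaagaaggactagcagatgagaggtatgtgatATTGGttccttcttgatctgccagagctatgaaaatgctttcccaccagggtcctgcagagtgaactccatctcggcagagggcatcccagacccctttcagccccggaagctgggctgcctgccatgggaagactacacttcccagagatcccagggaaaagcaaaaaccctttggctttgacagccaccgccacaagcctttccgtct
Psenen: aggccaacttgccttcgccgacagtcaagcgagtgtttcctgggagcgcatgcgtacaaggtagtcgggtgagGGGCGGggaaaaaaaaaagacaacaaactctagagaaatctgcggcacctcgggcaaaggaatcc

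The letters searched on both strands were those of the GC box GGGCGG, the box named CCAAT, the TATA box as TATAAA, the E-box as CACGTG and the cAMP response element as TGACGTCA, none of which overlaps another in the stretches shown. Over 250 bases a GC box was present in 30.5% of all 33469 promoters, a CCAAT box in 34.0%, a TATA box in 12.9%, an E-box in 5.59% and the cAMP response element in 1.59%. The Bace1 window held 1 CCAAT box, on its minus strand, and none of the other letters, and 52.0% of its bases were G or C, beside a median of 51.2%. The Psenen stretch of 138 bases held 1 GC box, as did 25.3% of all promoters in their nearest 138 bases. None of the 9 windows held the letters of the TATA box or of the cAMP response element. These matches are letters in a window, and no binding was measured.

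The start of Psenen faces that of U2af1l4, a splicing factor gene, and the start of Ncstn lies 13 bases from that of Copa, which encodes a coat protein of Golgi vesicles. U2af1l4 gave 633, 596 and 603 on the untreated arrays and 620, 626 and 614 on the C1q arrays, and its r with Psenen over the 6 arrays was -0.203. Copa gave 4009, 3774 and 4055 untreated and 3953, 3947 and 3941 after C1q, with r = 0.00612 to Ncstn. Their fold changes were 1.02 and 1.00. Both genes were picked from the annotation for their position. Aplp1 and Psenen also lie on one chromosome, 108 kb apart with 8 protein-coding genes between them, and their r was 0.00431.

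The genes whose profile over the 6 arrays was most like that of App were Tbc1d9, Ftl1, Ift56, Raph1 and Agrn, with Pearson's r of 0.997 to 0.995. Ftl1, the ferritin light chain, read 9565 ± 630 untreated and 9404 ± 235 after C1q, and Agrn, the extracellular proteoglycan agrin, 2457 ± 84.6 and 2442 ± 32.0 (SD, n = 3 each). All 5 were highest on untreated array 1 and lowest on untreated array 2, as App was. Over 6 arrays a high r was not particular to these 5, as 258 tested probe sets with a single named gene had r over 0.95 to App.

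A list of 102 genes around amyloid processing held 90 with a named probe set, of which 83 were tested and 7 lay below the filter. Limma called 0 of the 83, and 0 had an unadjusted p under 0.05. Of the 83 means 31 were higher and 52 lower, with a median log2 fold change of -0.01, beside -0.02 for all probe sets tested, of which 63.3% were lower. With quantile normalization or median centring 50 were higher and 33 lower, so the balance of the list turned with the scaling, as did that of all probe sets tested, of which 49.2% and 44.6% were then lower. The 7 secretase and family genes had a median of -0.04, with 5 lower and 2 higher under either rescaling.

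None of the other secretase genes passed the test. All 4 tested had lower means, and 3 had with either rescaling. Adam17, another alpha secretase, gave 290, 265 and 269 untreated and 264, 279 and 240 after C1q, with a fold change of 0.952 (95% interval 0.841 to 1.08). Adam9 had a fold change of 0.967. Bace2, the relative of Bace1, was dim, at 110.5 ± 3.35 untreated and 108 ± 8.98 after C1q (SD, n = 3 each), with a fold change of 0.975.

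Of 24 genes for adaptors and trafficking of the precursor 7 means were higher and 17 lower, and 15 and 9 with quantile normalization. Gga3, an adaptor that carries BACE1 to lysosomes, gave 747, 717 and 700 untreated and 660, 691 and 680 after C1q. Bin1, a membrane-shaping protein of endocytosis, gave 1447, 1397 and 1407 untreated and 1347, 1356 and 1359 after C1q. For both genes every C1q array lay below every untreated array, with fold changes of 0.940 (0.865 to 1.02) and 0.956 (0.894 to 1.02) and an adjusted p of 0.9999 by limma. Vps26a, a part of the retromer that sorts the precursor out of endosomes, had a fold change of 0.942. Itm2b, whose product binds the precursor, read 3706 ± 113 and 3605 ± 41.2 (SD, n = 3 each).

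Of 17 genes for breakdown and carriage of amyloid-beta 8 means were higher and 9 lower, and 10 and 7 with either rescaling. Clu, which encodes the carrier clusterin, had all 3 C1q arrays, between 440 and 444, below the untreated arrays at 512, 479 and 462, and a fold change of 0.916 (0.832 to 1.01). A2m, the protease inhibitor alpha-2-macroglobulin, had the highest fold change of the 83 genes tested, 1.10 (0.968 to 1.25). Timp3, an inhibitor of ADAM proteases, had 0.926 (0.804 to 1.07). Ide, the insulin-degrading enzyme, which also breaks down amyloid-beta, had 1.03 and Apoe, the main lipid carrier of brain, 0.978. Mme, the peptidase neprilysin, was too dim to be tested, with 51.1 ± 7.40 in untreated neurons against 55.8 ± 3.56 (SD, n = 3 each). Groups did not overlap for 6 of the 83 genes, or 7.23%, against 5.72% of all probe sets. They were A2m, higher, and Gga2, Gga3, Bin1, Clu and Timp3, lower, with Gga2 named here after its values were seen.

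Of 22 other secretase substrates and their ligands 12 means were higher and 10 lower, and 19 and 3 with either rescaling. Of all probe sets tested 63.3% were lower, 49.2% with quantile normalization and 44.6% with median centring. By limma 0 of the 22 had an unadjusted p under 0.05, and the split was not tested. Sez6l, a substrate of BACE1, had a fold change of 1.06 (0.961 to 1.16), the netrin receptor gene Dcc 1.04, the adhesion molecule gene L1cam 1.03 and Notch1 1.02. The Notch target Hes6 read 1040 ± 48.0 untreated and 1062 ± 13.5 after C1q, and Hey1 147 ± 5.16 and 138 ± 4.82 (SD, n = 3 each). Of the 4 Notch targets tested 3 means were lower and 1 was higher, as with quantile normalization, and 2 and 2 after median centring. Nrarp had a fold change of 0.963, but its log2 fold change was positive with array weights, at 0.148, and without untreated array 1, at 0.033, and Hes1 was below the filter, at 82.0 ± 4.58 and 90.2 ± 6.63 (SD, n = 3 each).

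Of 12 genes for tau and its kinases 3 means were higher and 9 lower, and 4 and 8 with either rescaling. Mapt, which encodes tau, gave 4986, 4680 and 4540 on the untreated arrays and 4832, 4828 and 4740 on the C1q arrays, with a fold change of 1.01 (0.948 to 1.09). The tau kinase genes Gsk3a and Gsk3b both had a fold change of 0.950, and Cdk5r1, the activator of Cdk5, 0.964, each with overlapping groups.

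**Figure D4:**
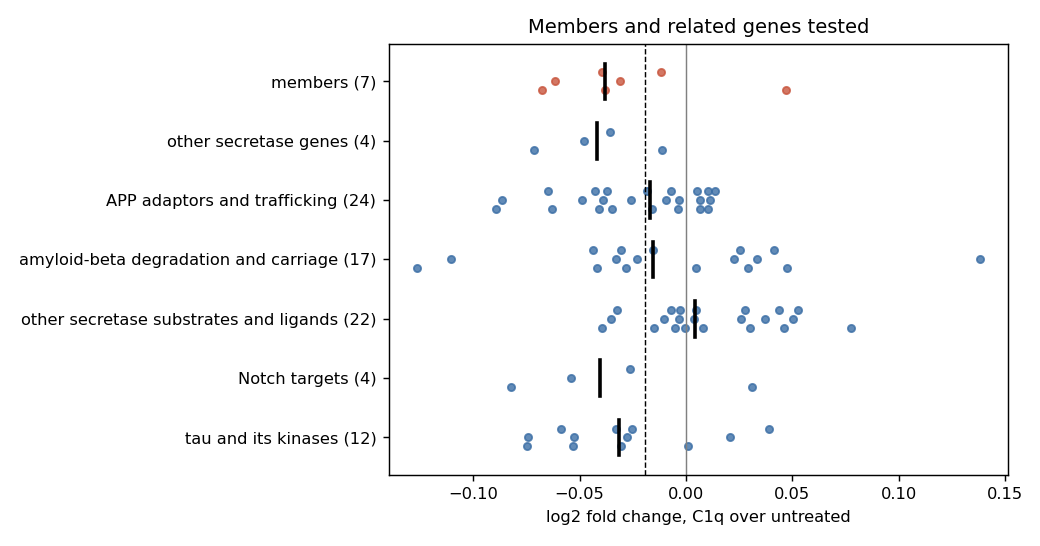
Log2 fold change, C1q over untreated, of each tested gene (points), by group (rows, number of genes in brackets), with the secretase and family genes in red; black bars are group medians and the dashed line the median of all 17529 probe sets tested, -0.02. The points of every group lie between -0.13 and 0.14, and no point is a called gene.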

How the data were processed

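The deposited table gives 1 intensity per probe set and array on a linear scale. How the authors summarised and normalized these intensities is not given in the sources used here. Biotin-labelled cRNA was prepared by the Affymetrix standard protocol, per the labels. Gene names came from the platform annotation, checked by gene identifier against RefSeq's GRCr8 table, where 15279 of 15310 matched.

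All values were taken as log2(intensity + 16), where fold changes understate those of dim genes. Probe sets in the brightest 60% by mean, 17529 in number, entered 1 limma fit (version 3.58.1, R 4.3.3; lmFit, then eBayes using the intensity trend) with Benjamini-Hochberg adjustment over all of them. A gene with several probe sets was represented by the brightest. The number of arrays limits the precision. Related genes named were the 3 of smallest unadjusted p per group, others chosen by name (Sorl1 had no named probe set), and 5 genes of highest r to App. The members and lists were chosen with earlier results of these data known. Alternatives covered scaling, filter, pseudocount, variance model, weighting of arrays, a replicate block and the removal of each array in turn.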

Additional observations from a re-analysis of the deposited data

How the results depend on the processing

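No probe set of the 7 genes was called under any alternative other than array weights, which called 1, Psenen (log2 fold change -0.14), and no related gene was called under any. Over all probe sets, 447 were called with array weights, 9 with the replicate block, 1 without the filter and 0 to 38 when each array was left out, with all 38 made without untreated array 2. The deviations of same-numbered arrays from their group means had r = 0.0141, -0.453 and -0.134. Deviations within a group must cancel, so these r depend on each other. They cannot tell whether the numbers pair the samples. The replicate block called 0 of the 7 genes and 0 related genes.

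The log2 fold change of App turned to 0.00294 (quantile normalization), 0.0150 (median centring) and 0.00368 (array weights), and ranged from -0.0328 to 0.0166 when 1 array was left out. That of Aplp1 turned to 0.0387 with array weights and ranged from -0.0867 to 0.0503, and the Aplp1 minus App difference ranged from -0.0677 to 0.0336, with the positive value of each made without untreated array 1. Nrarp turned to 0.148 with array weights. When 1 array was left out, the ranges were -0.169 to 0.0330 for Nrarp, -0.106 to 0.00663 for Adam9, -0.0934 to 0.00666 for Bace2, -0.00398 to 0.0613 for Hes6, -0.0265 to 0.100 for Ide and -0.00917 to 0.0581 for Mapt. Psen2, Bace1, Ncstn, Aph1a and Psenen kept their sign in all 14 alternatives computed for each, but not their size: when 1 array was left out, Psen2 ranged from -0.102 to -0.00659 and Ncstn from -0.0689 to -0.00321, and with array weights they were -0.0137 and -0.0019. The cause of these turns was not tested. Averaging over several probe sets of a gene changed no call among the related genes, and App and Aplp1 have 1 probe set each.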
